A study of Mus musculus with 6 samples.

Results

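Oxidative phosphorylation (OXPHOS) genes code for the subunits and some assembly factors of the respiratory chain and of ATP synthase. Members were the protein-coding genes with symbols starting Nduf, Uqcr, Cox4 to Cox8 or Atp5, together with the mt-Nd, mt-Co, mt-Cytb and mt-Atp genes of the mitochondrial genome. Of the 15903 genes tested, 94 met this rule. They comprised 87 nuclear-encoded genes (45 of complex I, 8 of complex III, 17 of complex IV and 17 of complex V) and 7 of the 13 protein-coding genes of mitochondrial DNA. The rule used symbols and no measured values, apart from the minimum total count of 10 that every gene tested had to reach.

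RNA was measured in bone-marrow-derived macrophages (BMDMs), which are macrophages differentiated in culture from marrow cells by the growth factor M-CSF. The marrow came from 3 Cx3cr1GFP mice on the C57BL/6J background, so both groups carried the GFP allele of Cx3cr1. After 7 days with 10 ng/ml M-CSF, cells of each mouse served as unstimulated control (n = 3) or received 62 mM excess NaCl for 24 h (n = 3). Only adherent cells, detached with EDTA, were sequenced. The comparison asks how this salt load changed gene expression in the cells.

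The respiratory chain passes electrons from NADH (complex I) and succinate (complex II) through ubiquinone to complex III, then through cytochrome c to complex IV, which reduces oxygen. Complexes I, III and IV pump protons, and complex V, the ATP synthase, uses the proton gradient to make ATP. A few core subunits of each proton-moving complex are encoded in mitochondrial DNA and made inside the organelle, whereas all others, and all of complex II, are nuclear-encoded and imported, so each proton-moving complex draws on both genomes. Macrophages are known to change their reliance on this pathway when they are activated.

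For 6 of the 13 mitochondrially encoded genes the read counts were at or near 0 and were not used to measure expression. mt-Co2, mt-Atp8, mt-Atp6, mt-Co3 and mt-Nd4l had 0 counts in all 6 libraries, and mt-Nd3 had 0, 1 and 2 counts in the control libraries and 4, 2 and 0 in the NaCl libraries. These genes lie side by side on the mitochondrial genome, where mt-Co1, just before them, had between 28515 and 121860 counts per library. Reads were 75 bases long, and a read that maps to more than 1 place is not counted by the counting mode of the aligner. In the GENCODE M21 transcripts, 709 of the 710 windows of 75 bases in mt-Co3 (99.9%) were also found in Gm28437, a copy of mitochondrial DNA on nuclear chromosome 1. The shared portion was 99.5% for mt-Co2, 99.5% for mt-Atp6, 98.7% for mt-Nd4l and 97.8% for mt-Nd3. Among the genes that were counted, it was 61.5% for mt-Nd4, 39.8% for mt-Co1, 5.71% for mt-Nd2, 1.66% for mt-Nd5 and 0% for mt-Nd1, mt-Nd6 and mt-Cytb. mt-Atp8 shared no window with an annotated transcript. It starts within the 230 bases between mt-Co2 and mt-Atp6 and runs into mt-Atp6, and the corresponding 233 bases between the copies Gm28661 and Gm10925 hold no annotated transcript. The mt-Co2 copy ends 3 bases earlier than mt-Co2, which equals the difference in spacing. Only annotated transcripts were searched, so whether those 233 bases hold a copy of mt-Atp8 was not tested. The copies themselves had few counts: Gm28437 had 1 and Gm28438 had 3 over all libraries.

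The sequences show how alike gene and copy are over the length of a read. The first pair is the first 75 bases of mt-Nd3 (chrM:9459-9533, + strand, GRCm38) and of its copy Gm28438 (chr1:24613045-24613119, - strand). Capitals mark the one base that differs, T3C, counted from 1 at the 5′ end of mt-Nd3. It was the only difference over 345 aligned bases. The second pair is a stretch from the middle of mt-Co3 (chrM:8961-9035, + strand) and of Gm28437 (chr1:24613543-24613617, - strand), which were identical over all 783 aligned bases.
mt-Nd3: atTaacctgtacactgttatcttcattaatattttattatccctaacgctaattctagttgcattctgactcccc
Gm28438: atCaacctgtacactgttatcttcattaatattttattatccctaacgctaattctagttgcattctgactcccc
mt-Co3: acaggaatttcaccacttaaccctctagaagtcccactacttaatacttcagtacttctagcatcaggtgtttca
Gm28437: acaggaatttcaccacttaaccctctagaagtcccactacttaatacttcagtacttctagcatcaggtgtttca

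**Figure D1:**
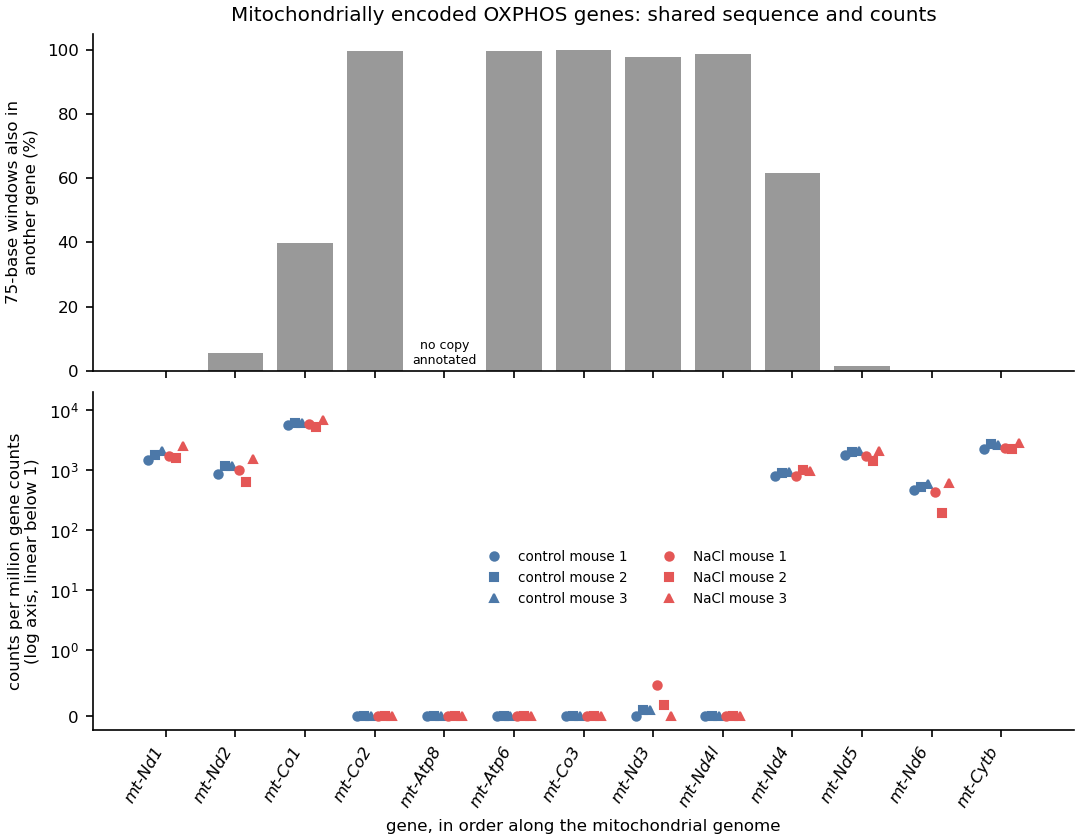
The 13 protein-coding genes of mitochondrial DNA in their order along the genome: the upper panel gives the percentage of 75-base windows also found in another annotated gene, the lower panel the counts per 1000000 gene counts in each of the 6 libraries on a log axis that is linear below 1. The 5 genes with at least 97.8% of windows shared, and mt-Atp8, lie at or near 0, and the other 7 lie far above them.

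The libraries held between 4088065 (NaCl replicate 3) and 20123570 (control replicate 3) counts on genes. All 10 macrophage markers were detected, with a summed level of 15477 to 17303 counts per 1000000 counts (CPM) in control and 24320 to 31745 in NaCl, the sum being mostly Lyz2. Neutrophil markers (12 of 12 tested) summed to 336 to 615 CPM in control and 334 to 429 in NaCl, monocyte markers (8 of 8) to 236 to 387 CPM over all libraries and dendritic cell markers (10 of 10) to 988 to 1210, whereas only 2 of 6 B cell, 1 of 7 erythroid and 3 of 7 stromal markers reached the minimum count. Without the mouse as a term, edgeR called Cd14 and Lyz2 of the macrophage and Ifitm6 of the monocyte markers higher in NaCl. In the fit blocked on the mouse, where 4.6% of all genes were called higher and 4.3% lower, these were joined by Csf1r and Fn1 as higher, and Mertk and Mrc1 of the macrophage and Csf3r, Ngp and Mpo of the neutrophil markers were lower. How far other cells contributed to the values below was not tested, and in such bulk RNA fewer cells of a type and less RNA per cell cannot be told apart.

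The widely expressed nuclear-encoded subunits of all 4 complexes were detected, and the levels differed by genome of origin and by complex. Levels between genes are compared as the control mean of CPM per kb of transcript. The mitochondrially encoded genes were highest, with 3866 for mt-Co1, 2248 for mt-Cytb and a median of 1047 for the 5 counted complex I genes. The values of mt-Co1 and mt-Nd4 cover only part of their reads. Per 1000 unshared windows, mt-Co1 had 6749 CPM and mt-Nd4 1773 CPM, against 2039 for mt-Nd1 and 1150 for mt-Nd5. Among the nuclear-encoded genes, Atp5b, the catalytic beta subunit of ATP synthase, was highest with 385 CPM per kb. The medians of the classes were 235 for the F1 part of ATP synthase, 132 for the 11 widely expressed complex IV subunits, 116 for the accessory subunits of complex III, 57.3 for its core proteins, 50.8 for the accessory and 39.5 for the core subunits of complex I. The 8 complex I assembly factors had a median of 7.37 CPM per kb, with Ndufaf8 at 17.4 as the highest of them.

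Where subunits exist as isoforms, the widely expressed isoform carried nearly all of the signal. Cox6a1 had 262 CPM per kb in control and its heart and muscle isoform Cox6a2 3.75. Cox4i1 had 332 and Cox4i2, an isoform known from lung and low oxygen, 0.472. Cox7a2 had 130 and the muscle isoform Cox7a1 4.62. Cox8a had 242, while its muscle isoform Cox8b had 1 count over all libraries. Ndufa4, a complex IV subunit named after complex I, had a mean of 102 CPM in control, and its paralogue Ndufa4l2 had 2 counts over all libraries. Cox7b2 and Cox8c, known from testis, had 0 counts in every library, which at a floor of 3 counts allows up to 0.718 CPM in the shallowest and 0.151 in the deepest. The 3 genes for the same mature c subunit of the ATP synthase ring differed in level, with 236 CPM per kb for Atp5g3, 36.0 for Atp5g2 and 16.4 for Atp5g1. Of the 75-base windows of Atp5g2, 35.8% were shared with another gene, so its level is uncertain.

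**Figure D2:**
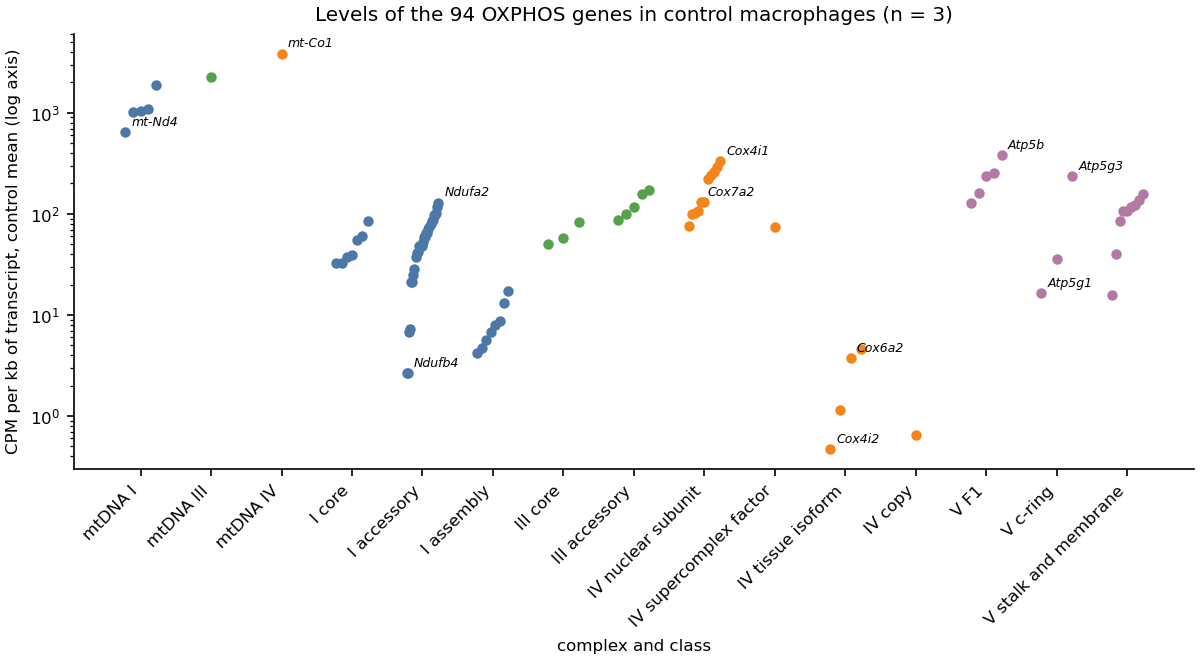
Control mean (n = 3) of CPM per kb of transcript, on a log axis, for the 94 OXPHOS genes by genome of origin, complex and class; each point is a gene. mt-Co1 at 3866 is the highest and the tissue isoforms of complex IV lie between 0.472 and 4.62.

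Few OXPHOS genes differed between the groups, and the medians of the set were close to 0. Without the mouse as a term, none of the 94 members was higher and none lower at an adjusted p under 0.05 (edgeR quasi-likelihood test), where 0.654% of all genes were called, 0.478% higher and 0.176% lower. At an unadjusted p under 0.05 there were 5 members, all lower in NaCl (Ndufb5, Ndufc1, Ndufc2, Ndufv3 and Cox6a2), against 12.6% of all genes (6.63% higher and 6.01% lower). DESeq2 called 1 member (Cox6a2, lower), where 3.12% of the genes with an adjusted p were called, 1.91% higher and 1.21% lower, and limma-voom none. The same 3 mice gave both groups. When the mouse was added to the edgeR model as a block, it called 4 members lower (4.26% of members, against 4.3% of all genes called lower) and none higher (4.6% of all genes called higher, 8.9% called in all). At an unadjusted p under 0.05 this fit had 6 members higher and 8 lower, where 22.1% of all genes passed, 10.7% higher and 11.3% lower. DESeq2 with the block again called Cox6a2 alone, with 6.96% of genes called, 3.9% higher and 3.06% lower. The number called lower is thus close to the share among all genes.

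The median log2 fold change was -0.00 for the nuclear-encoded and -0.05 for the mitochondrially encoded members, and -0.01 for all genes. With the block these medians were -0.02, -0.04 and -0.02. The middle 50% of the members lay between -0.13 and 0.14 without the block, that of all genes between -0.24 and 0.24. With the block, the 95% interval of the log2 fold change lay within 0.5 on either side of 0 for 65 of the 94 members (69.1%), and within 1 for 89 (94.7%). For all genes tested these shares were 35.0% and 64.9%, and within 0.5 they were 89.7% for proteasome subunits, 74.7% for cytosolic and 71.4% for mitochondrial ribosomal proteins. Without the block, 40 and 82 members lay within 0.5 and 1. The intervals are those of each gene, without adjustment for their number.

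**Figure D3:**
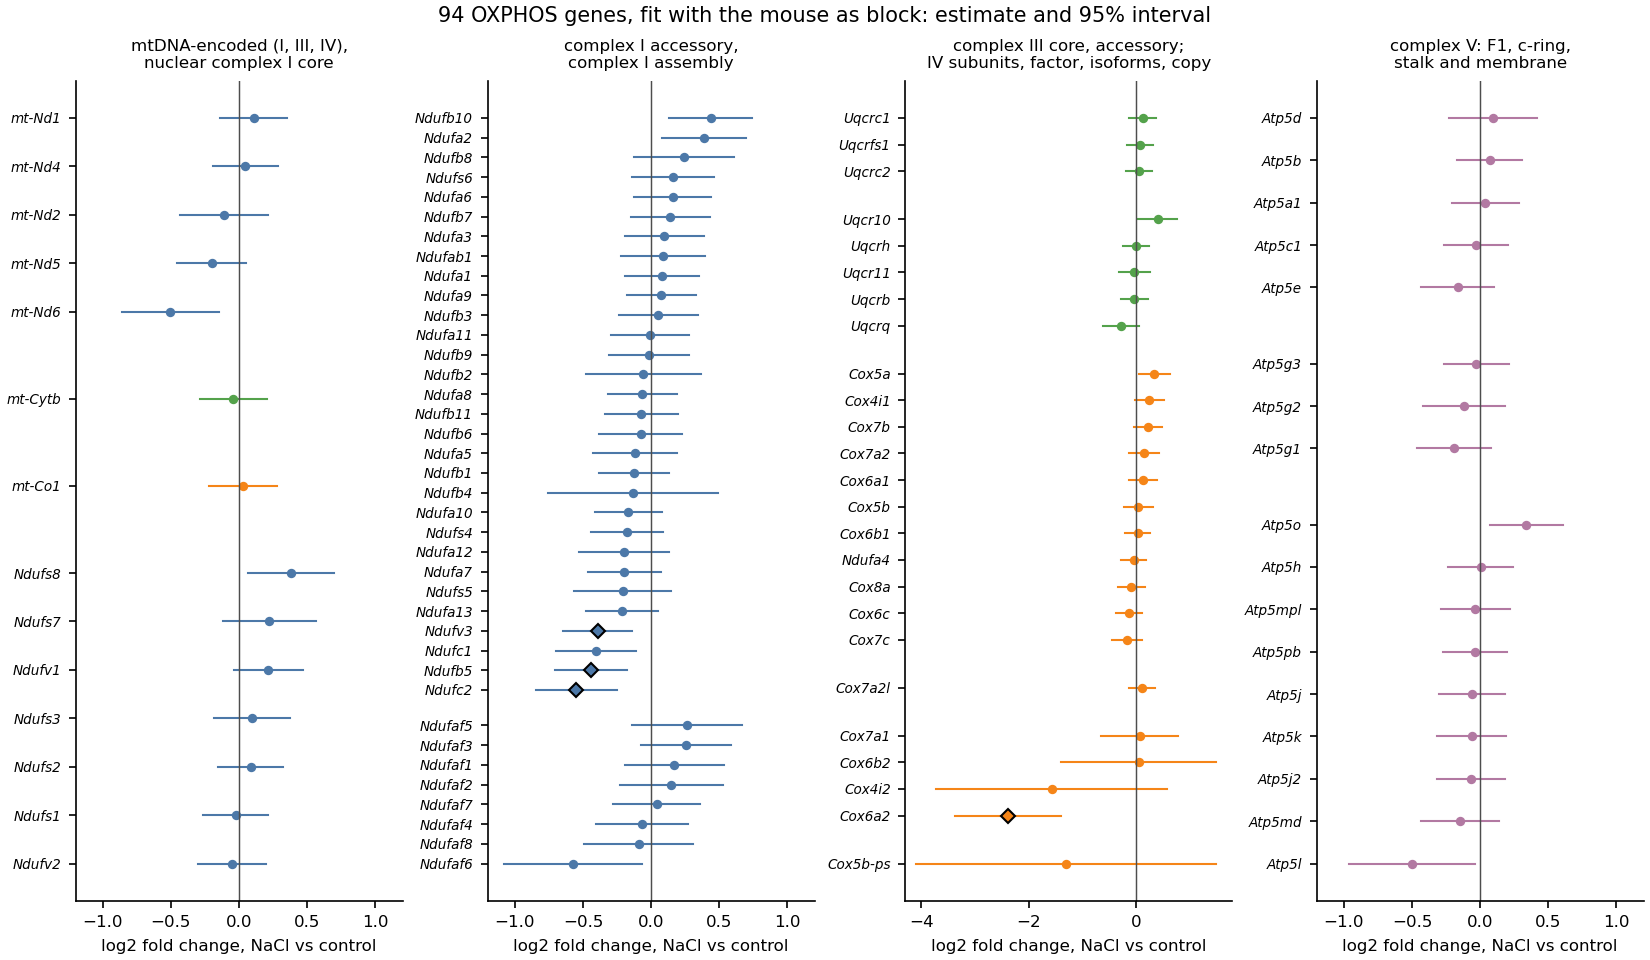
log2 fold change of NaCl against control with its 95% interval (lines) in the edgeR fit with the mouse as block, for all 94 OXPHOS genes by complex and class (colour by complex, n = 3 mice); diamonds with a black edge have an adjusted p under 0.05. The 4 diamonds, Ndufv3, Ndufb5, Ndufc2 and Cox6a2, lie below 0, and the third panel has a wider axis.

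None of the 7 mitochondrially encoded members was called by edgeR in either fit, and their groups overlapped for all 7. At an unadjusted p under 0.05 there was none without the block and 1, mt-Nd6, with it, against 12.6% and 22.1% of all genes. mt-Co1, the catalytic core of complex IV, had 5426, 6345 and 6147 CPM in control and 5826, 5627 and 6831 in NaCl, a log2 fold change of 0.03 with a 95% interval from -0.22 to 0.28 with the block. mt-Cytb, the cytochrome b of complex III, had 2168, 2843 and 2704 CPM in control and 2252, 2410 and 2815 in NaCl, with an interval from -0.29 to 0.21. For both genes a change by 0.5 on the log2 scale is thus outside the interval.

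Of the 5 counted complex I genes of mitochondrial DNA, all of the membrane arm, mt-Nd2 and mt-Nd6 varied most between mice. mt-Nd1 had 1435, 1815 and 2151 CPM in control and 1662, 1689 and 2492 in NaCl. mt-Nd2 had 851, 1212 and 1197 CPM in control and 966, 673 and 1501 in NaCl. mt-Nd6, the only member read from the other strand of mitochondrial DNA, had 455, 534 and 598 CPM in control and 413, 201 and 604 in NaCl. For mt-Nd2 and mt-Nd6 NaCl replicate 2 was the lowest library and NaCl replicate 3 the highest. The log2 fold change of mt-Nd6 with the block was -0.50 (SE 0.17, adjusted p = 0.0672, edgeR), and the log2 ratios within mice 1, 2 and 3 were -0.14, -1.41 and 0.01. Without both libraries of mouse 2, it was -0.06. Without mouse 1 or without mouse 3, mt-Nd6 was called lower (edgeR adjusted p = 0.0208 and 0.0196), where 2.73% and 2.16% of all genes were. Both of these fits keep mouse 2. mt-Nd4 (log2 fold change 0.05 with the block, adjusted p = 0.878) and mt-Nd5 (-0.20, adjusted p = 0.364) were not called by edgeR. The libraries carried no strand information, so reads of mt-Nd6 and of RNA from the opposite strand cannot be told apart.

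Among the 45 nuclear-encoded genes of complex I, the entry point for electrons from NADH, 3 accessory subunits were lower with the block. In that fit 4.3% of all genes were called lower. Ndufc2, a membrane-arm subunit, had 41.3, 44.7 and 49.9 CPM in control and 39.2, 26.4 and 27.8 in NaCl. All NaCl values lay below all control values, but the first mouse hardly differed between its 2 libraries (log2 ratios -0.07, -0.76 and -0.84). It fell by 0.55 on the log2 scale with the block (SE 0.14, edgeR adjusted p = 0.0141; without the block 0.2496).

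Ndufb5, another membrane-arm subunit, had 45.7, 43.1 and 43.8 CPM in control and 36.5, 27.3 and 34.7 in NaCl, without overlap. It was lower in each mouse, with log2 ratios of -0.32, -0.66 and -0.33, and fell by 0.44 on the log2 scale with the block (SE 0.13, edgeR adjusted p = 0.0298; without the block 0.275). Ndufv3, an accessory subunit of the NADH-oxidizing module, had 67.0, 63.6 and 57.0 CPM in control and 57.6, 48.5 and 37.8 in NaCl. The groups overlapped, since NaCl replicate 1 lay just above control replicate 3, but each mouse was lower (log2 ratios -0.22, -0.39 and -0.59). It fell by 0.39 on the log2 scale with the block (SE 0.12, edgeR adjusted p = 0.0463; without the block 0.393).

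DESeq2 with the block did not call these 3 genes (adjusted p = 0.0627 for Ndufc2, 0.122 for Ndufb5 and 0.143 for Ndufv3). The edgeR calls with the block also depended on which mice were included. Ndufb5 was lost without mouse 1, without mouse 2 and without mouse 3 (adjusted p = 0.130, 0.121 and 0.0812). Ndufv3 was lost without mouse 1 (0.139) and mouse 3 (0.303), and Ndufc2 without mouse 3 (0.179). Ndufc1, a further membrane-arm subunit, also had all NaCl values (24.6, 24.2 and 18.0 CPM) below all control values (28.7, 29.9 and 30.3 CPM), with an edgeR adjusted p of 0.0771 with the block. Over all members, groups did not overlap for 5 genes with NaCl lower (Ndufc2, Ndufb5, Ndufc1, Cox6c and Cox6a2) and 2 with NaCl higher (Ndufaf5 and Atp5o), where the shares among all genes were 10.1% and 8.92% (19% in all).

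Other complex I genes had higher values in NaCl, carried by a single library. Ndufb10, a membrane-arm subunit, had 43.5, 49.0 and 48.1 CPM in control and 51.7, 98.0 and 48.2 in NaCl. Ndufa2 had 67.4, 80.2 and 74.3 CPM in control and 81.4, 158 and 67.3 in NaCl. Ndufs8, an iron-sulfur core subunit, had 34.5, 36.1 and 38.9 CPM in control and 39.1, 70.6 and 36.9 in NaCl. In all 3 genes NaCl replicate 2 stood far above the others, while the other NaCl libraries lay near the control values. With the block their edgeR adjusted p was 0.0637, 0.110 and 0.125, and without both libraries of mouse 2 the log2 fold changes were 0.13, 0.07 and 0.06. Without mouse 3, which leaves mouse 2 and mouse 1, they were 0.65, 0.64 and 0.60. All 3 genes were then called higher (edgeR adjusted p = 0.0206, 0.0195 and 0.0383), where 3.04% of all genes were. The core subunits as a class had a median log2 fold change of 0.11, the accessory subunits -0.06 and the assembly factors 0.09, with no gene called without the block. Without NaCl replicate 2 the core median was -0.04 and the accessory median -0.17, and without NaCl replicate 1 the accessory median was 0.02. The assembly factor with the most negative value, Ndufaf6, had a log2 fold change of -0.57 with the block (SE 0.25, edgeR adjusted p = 0.159), and Ndufaf5 one of 0.26 (adjusted p = 0.482).

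None of the 8 nuclear-encoded genes of complex III, which hands electrons from ubiquinone to cytochrome c, was called by edgeR in either fit. With the block 1 of them, Uqcr10, had an unadjusted p under 0.05, where 22.1% of all genes did. The core proteins Uqcrc1, Uqcrc2 and Uqcrfs1 had log2 fold changes of 0.13, 0.06 and 0.08 with the block, each with a 95% interval within 0.5 on either side of 0. The small subunit Uqcr10 had 43.9, 51.3 and 56.4 CPM in control and 54.6, 116 and 43.4 in NaCl. Its high value was again NaCl replicate 2, and without both libraries of mouse 2 its log2 fold change was -0.01 instead of 0.41. Without mouse 3 it was 0.77 and was called higher (edgeR adjusted p = 0.00635), where 3.04% of all genes were. Uqcrq, also a small subunit, had 59.0, 86.0 and 92.5 CPM in control and 56.4, 102 and 43.1 in NaCl, a log2 fold change of -0.27 with the block (edgeR adjusted p = 0.359). Without both libraries of mouse 2, which leaves 2 mice, it was -0.55 and was called lower (edgeR adjusted p = 0.000306), where 4.21% of all genes were. Its log2 ratios within mice 1, 2 and 3 were -0.06, 0.25 and -1.10, so the mice left in that fit differed widely.

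In complex IV, Cox6a2 had the most negative log2 fold change of all 94 members without the block. It is the muscle isoform of subunit VIa and was measured at a very low level. It had 10, 39 and 59 counts in control and 4, 8 and 0 in NaCl, which is 1.14, 3.53 and 2.98 CPM against 0.447, 0.725 and 0 CPM. The groups did not overlap, and the 0 of NaCl replicate 3 allows up to 0.718 CPM at 3 counts. The log2 fold change was -2.42 (SE 0.61, edgeR adjusted p = 0.135) without the block and -2.39 (SE 0.48, adjusted p = 0.00151) with it. DESeq2 called it in both designs (adjusted p = 0.0224 and 0.0284), and so did the edgeR fit with the block without mouse 1, mouse 2 or mouse 3 (adjusted p = 5.28e-05, 0.0037 and 0.0233). Its abundant counterpart Cox6a1 had 134, 160 and 155 CPM in control and 154, 213 and 132 in NaCl, with a log2 fold change of 0.13 with the block (edgeR adjusted p = 0.598). The other tissue isoforms Cox4i2 (17 counts over all libraries), Cox6b2 (32) and Cox7a1 (137) were not called, and their intervals were wide, from -3.72 to 0.59 for Cox4i2 with the block.

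The 11 widely expressed nuclear subunits of complex IV had a median log2 fold change of 0.07, which was -0.07 without NaCl replicate 2, and edgeR called none in either fit. At an unadjusted p under 0.05 there was none without the block and 1, Cox5a, with it, against 12.6% and 22.1% of all genes. Cox4i1, the largest nuclear-encoded subunit, had 246, 266 and 238 CPM in control and 260, 438 and 232 in NaCl. Cox5a had 56.1, 67.2 and 84.6 CPM in control and 65.5, 119 and 82.4 in NaCl. The highest value of both genes was NaCl replicate 2, and this held for 9 of the 11 subunits. Cox7c, with a log2 fold change of -0.16 with the block, had the lowest value of the class. Ndufa4 and Cox6b1 were close to 0, with log2 fold changes of -0.04 and 0.03 with the block. Cox7a2l, which joins complexes III and IV in supercomplexes, had 89.0, 72.2 and 85.3 CPM in control and 100.5, 86.3 and 80.7 in NaCl (edgeR adjusted p = 0.625 with the block). Cox5b-ps, a near-identical copy of Cox5b with 43.0% of its windows shared, had 10 counts in all and cannot be judged.

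Of the 17 ATP synthase genes none was called by edgeR in either fit. At an unadjusted p under 0.05 there was none without the block, against 12.6% of all genes. With the block there was 1 in each direction (Atp5o higher, Atp5l lower), where 10.7% of all genes were higher and 11.3% lower. The 5 genes of the catalytic F1 part had a median log2 fold change of 0.05, which was -0.10 without NaCl replicate 2. Atp5b had 632, 792 and 787 CPM in control and 702, 842 and 770 in NaCl, with a 95% interval from -0.17 to 0.31 with the block. Atp5o, a subunit of the peripheral stalk, had all NaCl values (39.2, 53.6 and 36.7 CPM) above all control values (32.9, 36.1 and 32.8 CPM), with a log2 fold change of 0.34 with the block (SE 0.13, edgeR adjusted p = 0.109). Of its 75-base windows 34.2% were shared with other genes. Atp5l, a small membrane subunit, had 8.07, 8.06 and 9.79 CPM in control and 7.38, 3.17 and 9.10 in NaCl, where NaCl replicate 2 was far below the others and the ratio was below 0 in each mouse (log2 ratios -0.13, -1.30 and -0.10, log2 fold change -0.50 with the block, adjusted p = 0.180). The c-ring genes Atp5g1, Atp5g2 and Atp5g3 had log2 fold changes of -0.19, -0.12 and -0.03 with the block. The 53 members outside the rule for named genes lay between -0.21 and 0.26 with the block, with adjusted p-values of at least 0.327.

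**Figure D4:**
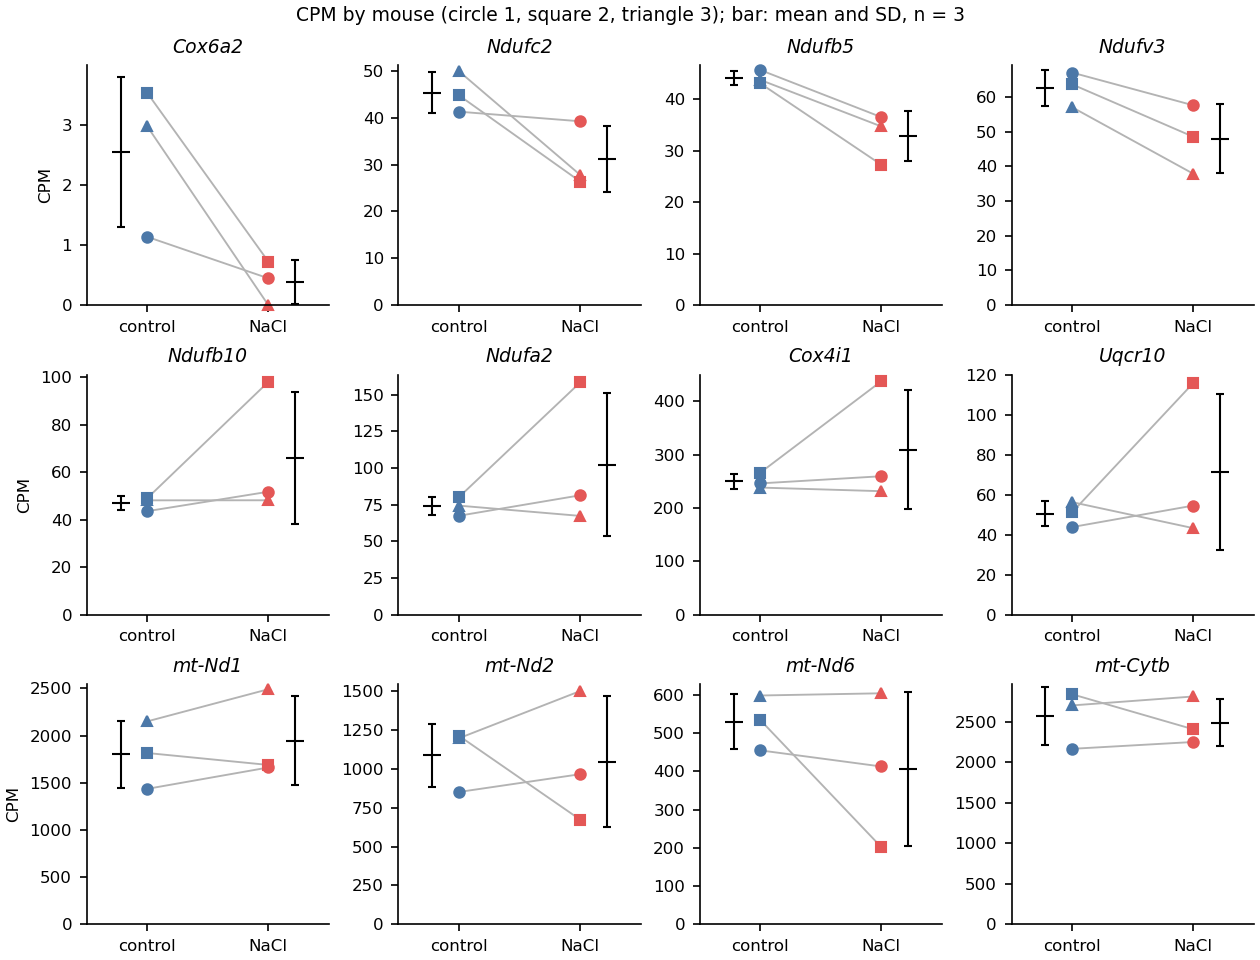
CPM of 12 OXPHOS genes in control (blue) and NaCl (red), with lines joining the 2 libraries of a mouse and bars giving the mean and SD of each group (n = 3). The upper row holds the 4 genes lower with the block, the middle row 4 genes in which NaCl replicate 2 (square) is by far the highest, and the lower row 4 mitochondrially encoded genes.

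The nuclear-encoded members shared a pattern that ran across libraries more than across the treatment. NaCl replicate 2 was the highest library for 44 of these 87 members (50.6%, against 24.5% of all genes). NaCl replicate 3, the shallowest library, was the lowest for 45 of them (51.7%, against 23.1% of all genes). Of the 7 mitochondrially encoded members, NaCl replicate 2 was highest for 1 and lowest for 3. NaCl replicate 3 was highest for 4 of these 7 and lowest for 0. The median log2 ratio of NaCl to control over the nuclear-encoded members was 0.05 in mouse 1, 0.07 in mouse 2 and -0.19 in mouse 3, whereas that of the mitochondrially encoded members was 0.06, -0.24 and 0.06. The medians of the genomes thus had opposite signs in mice 2 and 3. The ratio of mitochondrially to nuclear-encoded OXPHOS counts was 2.20, 2.38 and 2.41 in control and 2.22, 1.70 and 2.96 in NaCl. Both extremes were NaCl libraries, and the means, 2.33 ± 0.114 and 2.29 ± 0.634 (SD, n = 3), differed by less than this spread.

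The mitochondrially encoded members held 1.33, 1.54 and 1.56% of all gene counts in control and 1.401, 1.25 and 1.76% in NaCl, and the nuclear-encoded members 0.604, 0.645 and 0.649% in control and 0.632, 0.735 and 0.595% in NaCl. The differences between the group means, -0.00536 and 0.0217 percentage points, were smaller than the SD within either group. Wilson intervals (95%) covered counting error only and were narrow, from 0.588 to 0.603% for the nuclear-encoded members in the shallowest library. The portion from mitochondrial DNA leaves out the reads of the 6 genes that were not counted.

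**Figure D5:**
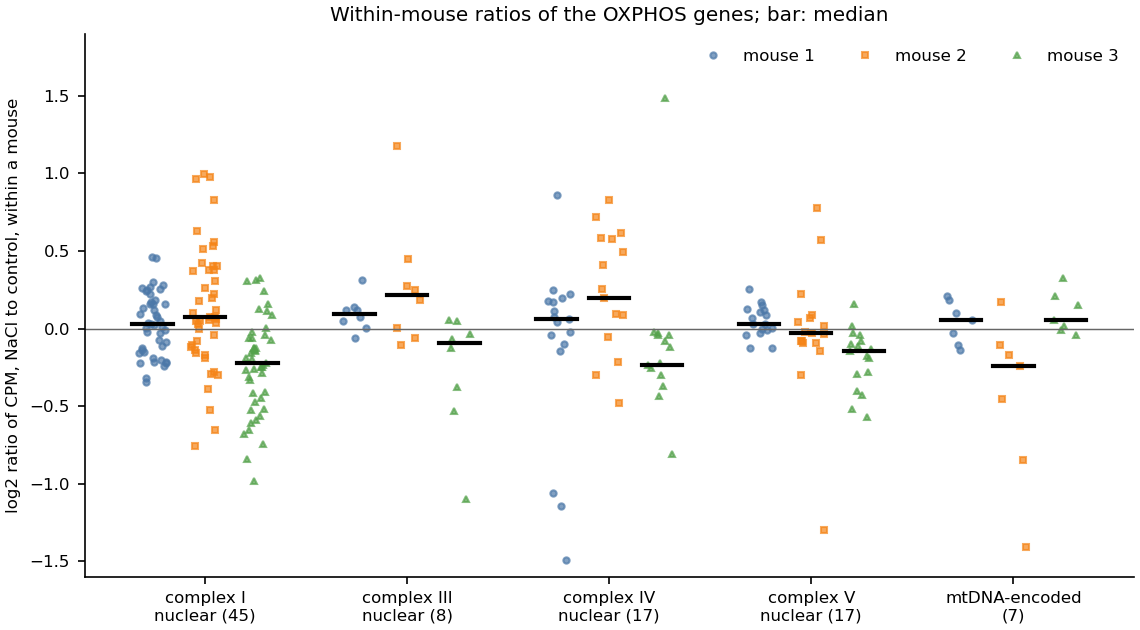
log2 ratio of CPM in NaCl to control within each of the 3 mice for the OXPHOS genes, by complex and genome of origin; points are genes (the number of genes in brackets), bars are medians, and 5 of the 282 values lie beyond 1.5 and are not drawn. The nuclear-encoded medians are below 0 in mouse 3 for every complex, and the mitochondrially encoded median is below 0 in mouse 2.

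Other families of abundant housekeeping genes often had the same highest library as the nuclear-encoded OXPHOS genes. NaCl replicate 2 was highest for 56.3% of the 87 cytosolic ribosomal protein genes, 53.8% of the 39 proteasome subunit genes and 44.2% of the 77 mitochondrial ribosomal protein genes. Their median log2 fold changes without the block were 0.04, -0.06 and 0.01, all near those of the OXPHOS genes. NaCl replicate 3 was the lowest library for 57.5% of the cytosolic ribosomal, 30.8% of the proteasome and 16.9% of the mitochondrial ribosomal protein genes. After thinning all libraries to the smallest total, edgeR called no member without the block, where 0.270% of all genes were called higher and 0.0803% lower. With the block it called Cox6a2 and Ndufc2 lower and none higher, where 4.50% of all genes were called higher and 3.61% lower. With the block, leaving out mouse 1 gave 3 members lower and none higher (5.51% of all genes called, 2.78% higher and 2.73% lower). Leaving out mouse 2 gave 5 lower and none higher (8.59% of all genes, 4.38% higher and 4.21% lower). Leaving out mouse 3 gave 6 higher and 2 lower (5.19% of all genes, 3.04% higher and 2.16% lower). After a correction of each library for GC content and transcript length, the fit with the block called 6 members higher (Atp5o, Cox5a, Ndufa2, Ndufb10, Ndufs8 and mt-Nd1) beside the 4 lower ones, where 13.8% of all genes were called, 7.47% higher and 6.35% lower. Whether members were called higher depended on this choice.

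Genes that serve the complexes but fall outside the symbol rule were described in the same way. All 4 genes of complex II (Sdha, Sdhb, Sdhc and Sdhd) were tested and none was called by edgeR in either fit, with a median log2 fold change of 0.08, which was -0.06 without NaCl replicate 2. Sdha, its flavoprotein, had all NaCl values (278, 365 and 277 CPM) above all control values (245, 259 and 244.5 CPM), with an edgeR adjusted p of 0.136 with the block and an unadjusted p under 0.05. Of 10 further complex I assembly factors, none was called without the block and Dmac1 was lower with it (log2 fold change -0.48, edgeR adjusted p = 0.0356). Among all genes, 0.176% were called lower without the block, and 4.6% higher and 4.3% lower with it. Of the 4, 6, 25 and 5 assembly factors of complexes II, III, IV and V, none was called by edgeR in either fit, and 3 had an unadjusted p under 0.05 with the block. The same held for 31 genes of mitochondrial DNA and RNA upkeep, 3 of which had an unadjusted p under 0.05 with the block, and for 12 nuclear regulators of respiratory genes, where 3 did. Of all genes tested, 22.1% had such an unadjusted p with the block. Of 13 genes of the mitochondrial unfolded protein response, Atf5, a transcription factor, fell in both fits (log2 fold change -1.18, edgeR adjusted p = 0.0384 without the block). With the block, Afg3l2 was lower (log2 fold change -0.67, edgeR adjusted p = 0.000414) and Spg7 higher (0.54, adjusted p = 0.00512), which code for the subunits of a protease of the inner mitochondrial membrane.

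Promoters were looked at after the edgeR fit with the block had called 3 complex I genes lower, where 4.3% of all genes were. RefSeq (GRCm38.p6) gave 77 promoters, from 250 bases before to 50 after the transcription start, for 72 of the 87 nuclear-encoded members. They were searched on both strands for motifs of factors known to regulate respiratory genes. The NRF1 motif, GCGCA followed after any 1 base by GCGC, was in 23.4% of the members' promoters, against 9.37% of the promoters of all genes tested and 4.60% of all promoters. CCGGAAG (GABP) was in 22.1%, against 16.8% and 8.86%. AAGATGGCG (YY1) was in 10.4%, against 2.82% and 1.403%, and CAAGGTCA (estrogen-related receptors) was in 3.90%, against 1.12% and 1.56%. Motifs can share letters: GABP ends in the AAG with which YY1 starts, and YY1 ends in the GCG with which NRF1 starts, so their matches are not independent. In all, 36 of the 72 genes had at least 1 of them, so having none was common among the members. Cox6a2 had no promoter in this set.

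The promoters of the 3 complex I genes that were lower with the block are shown with that of Cox6a1, the abundant counterpart of Cox6a2, which carries motifs of both NRF1 and GABP. They lie at chr7:97399753-97400052 (+ strand) for Ndufc2, chr3:32736813-32737112 (+) for Ndufb5, chr17:31519865-31520164 (+) for Ndufv3 and chr5:115348909-115349208 (-) for Cox6a1. Capitals mark the motifs: Cox6a1 holds GCGCATGCGC and GCGCAGGCGC as matches of NRF1 and CTTCCGG as GABP on the other strand, and the other 3 hold none of the 4 motifs in this window.
Ndufc2: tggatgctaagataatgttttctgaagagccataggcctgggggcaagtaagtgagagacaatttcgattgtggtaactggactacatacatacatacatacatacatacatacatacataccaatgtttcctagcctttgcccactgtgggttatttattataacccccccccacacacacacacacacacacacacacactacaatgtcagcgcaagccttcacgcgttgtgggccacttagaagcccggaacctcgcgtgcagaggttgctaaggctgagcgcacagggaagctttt
Ndufb5: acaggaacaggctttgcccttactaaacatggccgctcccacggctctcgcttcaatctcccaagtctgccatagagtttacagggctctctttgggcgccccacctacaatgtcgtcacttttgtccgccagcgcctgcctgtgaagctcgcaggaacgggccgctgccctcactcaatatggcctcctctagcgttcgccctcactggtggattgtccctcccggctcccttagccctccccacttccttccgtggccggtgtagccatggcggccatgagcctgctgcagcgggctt
Ndufv3: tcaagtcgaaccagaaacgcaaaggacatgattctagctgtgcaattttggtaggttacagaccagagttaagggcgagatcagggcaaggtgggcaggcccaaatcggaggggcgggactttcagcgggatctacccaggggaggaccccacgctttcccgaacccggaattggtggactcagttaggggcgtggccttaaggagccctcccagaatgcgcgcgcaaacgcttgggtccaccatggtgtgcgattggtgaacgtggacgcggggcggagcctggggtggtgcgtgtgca
Cox6a1: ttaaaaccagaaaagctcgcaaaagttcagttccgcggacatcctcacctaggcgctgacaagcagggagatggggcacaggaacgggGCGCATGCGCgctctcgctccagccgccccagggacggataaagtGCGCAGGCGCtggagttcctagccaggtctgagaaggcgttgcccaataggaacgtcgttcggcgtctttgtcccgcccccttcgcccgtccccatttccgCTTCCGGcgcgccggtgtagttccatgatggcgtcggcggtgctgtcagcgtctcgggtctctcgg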

How the data were processed

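PolyA RNA of the 6 libraries was sequenced as unstranded 75-base single-end reads. The authors trimmed reads with fastp 0.20.0, aligned them with STAR 2.7.10b to mm10 and deposited raw counts per gene; the GENCODE release they name belongs to another genome build. They also deposited a normalized signal table, in which each value is the raw count divided by a DESeq2 (1.40.2) size factor per library; only its gene labels were used. Reads that map to several places are not counted, which lowers genes with near-identical copies. Totals of 4088065 to 20123570 counts per library set the precision, and NaCl replicate 3 was the shallowest. Wilson intervals and floors cover counting error only, whereas intervals of fold changes include the spread between libraries.

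The 15903 of 57010 genes whose counts summed to 10 or more were tested with the edgeR (4.0.16, R 4.3.3) quasi-likelihood test with TMM scaling, without a mouse term as in the study's model, and p-values were adjusted by Benjamini-Hochberg over all genes. Differences were called at an adjusted p under 0.05. CPM are counts per 1000000 of the TMM-scaled total. Replicate numbers name the mouse, which gave both libraries. Deviations from the group means correlated within mice (0.426, 0.151 and 0.217 for mice 1, 2 and 3), so a second fit blocked on the mouse (the replicate block) is printed beside results that it changes. Between libraries of different mice these correlations lay between -0.350 and 0.124, so that of mouse 2 was only just above an unpaired value. Without the block, p-values rest on the spread between the libraries of a group. With the block they rest on how far the difference of NaCl and control varies between the 3 mice. In edgeR both spreads are drawn towards those of all genes, so a gene carried by a single mouse can reach a low p-value. Alternatives were DESeq2 1.42.0, limma-voom 3.58.1, other scalings and count filters, thinning to the smallest total, GC and length correction, and leaving out libraries.

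Lengths, coordinates and shared 75-base windows came from GENCODE M21 (GRCm38), and promoters from RefSeq GRCm38.p6; length is the median over transcripts. The members and lists were chosen with earlier results of these data known. Named genes were all mitochondrially encoded members, the 12 nuclear-encoded members with the lowest p with the block, the highest and lowest log2 fold change of each class, isoform sets, and up to 3 called genes of each other list. Genes chosen outside this rule after their values were seen are Cox6c, Cox6b1, Ndufaf8, Uqcrfs1, Atp5b, Sdha, Csf1r and Mrc1.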

Additional observations from a re-analysis of the deposited data

How the results depend on the processing

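Without the mouse as a term, edgeR called 0 members in either direction, also with each library left out in turn, with median-ratio or total count scaling, with scaling that leaves out the mitochondrially encoded genes, with the filter of filterByExpr, after thinning and after the GC and length correction. With the replicate block, 4 nuclear-encoded members were lower and none higher, where 4.3% of all genes were lower and 4.6% higher. Of the nuclear-encoded members, 1 was lower with DESeq2, 1 with DESeq2 and the block, 1 with a minimum total count of 1 and 1 with a likelihood ratio test, which was Cox6a2 each time, where 1.21%, 3.06%, 1.21% and 1.23% of all genes were lower. The number lower was 3 with limma-voom and the block (3.40% of all genes) and 2 after thinning with the block (3.61%). The GC and length correction with the block gave 5 nuclear-encoded members higher and 4 lower, and 1 mitochondrially encoded member higher. In that fit 7.47% of all genes were higher and 6.35% lower.

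Fits with the block that leave out both libraries of a mouse were added after seeing the data. Without mouse 1 they gave 2 nuclear-encoded members and 1 mitochondrially encoded member lower, where 2.73% of all genes were lower. Without mouse 2 they gave 5 nuclear-encoded members lower (4.21% of all genes). Leaving out mouse 3 gave 6 nuclear-encoded members higher (3.04% of all genes). It also gave 1 nuclear-encoded and 1 mitochondrially encoded member lower (2.16% of all genes). The causes were not tested.

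Of 408 class medians under alternatives, 7 moved by more than the spread between mice. The median of the complex IV tissue isoforms, -0.63, was 0.22 after thinning and 0.19 after thinning with the block, where fewer members were tested, and -1.37 with the block without mouse 2. Leaving out each library gave -1.40 to -0.37 for it, -0.33 to 0.03 for the mitochondrially encoded complex I genes, 0.0015 to 0.17 for the complex I assembly factors and -0.10 to 0.11 for the F1 genes. Of 977 log2 fold changes of 41 named members under alternatives, 58 had the other sign (20 members), none of them past the threshold. Depth limits the genes with few counts, and the 6 uncounted mitochondrially encoded genes are outside every result.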
